A study of Mus musculus with 4 samples.

Results

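The forkhead (Fox) genes of the mouse were examined in embryonic stem cells for ChIP-seq peaks of H1foo, a linker histone of the oocyte, and of the somatic H1 histones. The members were the protein-coding autosomal genes of the RefSeq annotation whose symbol is Fox, a letter from a to s, a number and at most 1 further letter. The rule used names and positions and no measured value, and it found 41 of 20661 autosomal protein-coding genes. The cells were of strain 129S4/SvJae and overexpressed a GFP fusion of mouse H1foo. All 4 libraries came from such cells, so there was no control line without the transgene. Chromatin immunoprecipitation and sequencing (ChIP-seq) had been done with a rabbit polyclonal antibody against H1foo (2 libraries) and with the mouse monoclonal antibody AE4, which served for the somatic H1 variants (2 libraries). The cells had received no treatment, and the labels name neither the promoter of the transgene nor the number of clones.

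Forkhead factors bind DNA through a winged-helix domain whose fold resembles the globular domain of linker histone H1. Some of them, above all FoxA proteins in the developing liver, are known as pioneer factors that engage nucleosomal DNA and compete with linker histone. Others carry signals to the genome, such as FoxO factors under insulin signalling and Foxh1 under Nodal, and many short forkhead genes specify tissues of the embryo. Linker histone H1 binds the nucleosome where DNA enters and leaves it, and H1foo is the variant that replaces somatic H1 in the oocyte and early embryo.

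The data are 1 peak list per antibody with 97825 H1foo and 47493 AE4 peaks, in coordinates of mm10. Each peak has a score from the authors' peak caller, at least 50 in both lists, with a median of 73.2 for H1foo and 63.8 for AE4. Values per library are not in the lists, so no spread between replicates and no test over samples could be had, and every count below is a description of these 2 lists. Read depth is unknown, and where no peak was listed, binding was not shown to be absent. The labels do not say whether AE4 also recognises H1foo.

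A gene was counted as carrying a peak when at least 1 bp of a peak lay inside it or within 2 kb of it. Of the 41 forkhead genes, 23 (56.1%) carried an H1foo peak, beside 62.3% of all autosomal protein-coding genes. AE4 peaks lay at 14 forkhead genes (34.1%), beside 48.4% of all genes. Forkhead genes were short, with a median length of 4.46 kb against 17.5 kb for other genes, and lay in gene-poor places, with a median of 10 protein-coding genes in the surrounding 1 Mb against 17. Among other genes of the same classes of length and gene density, weighted by the number of forkhead genes in each class, 47.1% carried an H1foo peak and 34.0% an AE4 peak. The forkhead share was thus above that of its classes for H1foo and level with it for AE4. With classes of length alone the share of other genes was 58.4% for H1foo and 41.8% for AE4, and the forkhead shares were then below both.

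Peaks of both antibodies were found at 14 forkhead genes (34.1%, background 44.4%, same classes 30.2%). At 9 genes there were H1foo peaks and no AE4 peak (22.0%, background 17.9%, same classes 16.9%). No forkhead gene had an AE4 peak without an H1foo peak, a state found at 3.97% of all genes. The remaining 18 genes had no peak in either list (43.9%, background 33.7%, same classes 49.1%). The genes with both made up 60.9% of the forkhead genes with H1foo and 100% of those with AE4, where the corresponding shares of other genes were 71.3% and 91.8%.

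Length divided the family. Of 23 forkhead genes of up to 6 kb, 8 had an H1foo peak (34.8%, other genes of that length 38.8%) and 2 had an AE4 peak (8.7%, others 22.5%). Other genes in this comparison by length were not matched for gene density. Across the length and density classes of the 23 genes, other genes had an H1foo peak in 14.4 to 53.3%. For AE4 these class shares ran from 4.79 to 36.2%. Of 14 genes over 20 kb, 12 had an H1foo peak (85.7%, others 72.0%) and 9 an AE4 peak (64.3%, others 61.7%). Of the 4 genes of intermediate length, 3 had an H1foo peak (75%, others 67.2%) and 3 an AE4 peak (75%, others 49.6%). The 14 long genes held 167 of the 195 H1foo peaks and 71 of the 79 AE4 peaks of the family. Inside the gene itself lay H1foo peaks at 19 forkhead genes (46.3%, background 58.9%, same classes 43%) and AE4 peaks at 13 (31.7%, background 44.8%, same classes 30.4%). Within 2 kb of either gene boundary, H1foo peaks lay at 19 genes (46.3%, background 47.2%, same classes 36.5%) and AE4 peaks at 7 (17.1%, background 25.4%, same classes 18.6%).

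**Figure D1:**
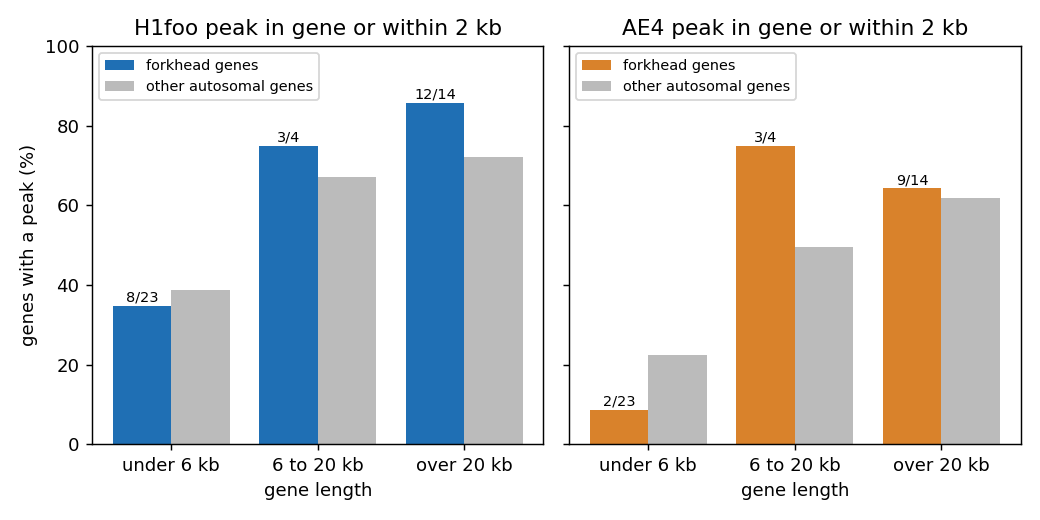
Share of genes (%) with a peak in the gene or within 2 kb, by gene length, for forkhead genes (coloured, number of genes above the bar) and other autosomal protein-coding genes (grey), for each antibody. Among genes of up to 6 kb, 2 of 23 forkhead genes had an AE4 peak against 22.5% of others. Among genes over 20 kb the forkhead share was 85.7% against 72.0% for H1foo. For AE4 it was 64.3%, near the 61.7% of others. The other genes were matched for length alone, not for gene density.

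An H1foo peak with a score of 100 or more lay at 19 of 41 forkhead genes (46.3%), beside 34.5% of all genes and 23.7% of other genes in the same classes. Among genes over 20 kb it was 10 of 14 (71.4%) against 35.7% of others, and among genes of up to 6 kb 6 of 23 (26.1%) against 23.8%. For AE4 the number was 5 of 41 (12.2%), beside 14.5% of all genes and 9.71% in the same classes. At least 4 H1foo peaks were found at 11 forkhead genes (26.8%, background 31.6%, same classes 20.3%).

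The 2 FoxK genes, which encode broadly expressed repressors of autophagy genes, stood far apart from each other. Foxk1, at 142401497 to 142462015 of chromosome 5 (60.5 kb), carried 37 H1foo and 21 AE4 peaks. That is 5.73 H1foo and 3.25 AE4 peaks per 10 kb of gene with its windows, where the medians of its class were 0.237 and 0.118. None of the 1227 other genes of its class was as dense in H1foo peaks, and 1 was as dense in AE4 peaks. The surrounding 1 Mb, with the peaks of Foxk1 included, held 240 H1foo and 106 AE4 peaks. H1foo peaks covered 56.2% of Foxk1 and its windows and AE4 peaks 20%. Its highest H1foo score, 400.99, was reached by 0.728% of all H1foo peaks, and its highest AE4 score was 157.21. Foxk2, of 49.9 kb on chromosome 11, had 3 H1foo peaks, centred 39841, 44812 and 47001 bp after its start site, and no AE4 peak. In the class of Foxk2, 85.5% of other genes had an H1foo peak and 80.2% an AE4 peak. Its H1foo density of 0.556 per 10 kb was below the class median of 0.911. The 1 Mb around Foxk2 held 133 H1foo and 44 AE4 peaks.

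The 3 autosomal FoxO genes, nuclear effectors of insulin and growth factor signalling, each carried H1foo peaks, as did 55.8 to 72.9% of other genes in their classes. Foxo3, a stress-response factor that keeps primordial follicles dormant in the ovary, spans chr10:42181845-42276695 (94.9 kb) and had 20 H1foo and 5 AE4 peaks. No AE4 peak of Foxo3 overlapped an H1foo peak. The nearest H1foo peaks lay 148, 221, 660, 1947 and 3697 bp away. Foxo1, which acts on metabolic genes and is inhibited by Akt, had 5 H1foo and 3 AE4 peaks over 81.8 kb. In Foxo1 1 peak of each list overlapped the other. Foxo6, a brain factor of 20.2 kb on chromosome 4, had 9 H1foo peaks with scores of 56.61 to 103.66 and no AE4 peak, the nearest AE4 peak lying 6666 bp from the gene. Its H1foo density of 3.72 per 10 kb was reached by 19 of 776 other genes of its class.

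Of the 3 autosomal FoxP genes, 1 carried peaks. In the class that Foxp1 and Foxp2 share, 56.5% of other genes had an H1foo peak and 50.8% an AE4 peak. In the class of Foxp4 the shares were 88.7% and 80.5%. Foxp4, a factor of lung and gut development on chromosome 17 (57.5 kb), had 23 H1foo and 8 AE4 peaks, and 6 peaks of each list overlapped the other. Foxp1, which has a splice form specific to embryonic stem cells, spans chr6:98925342-99522746 (597 kb) and had no peak in either list. Foxp2, known for its part in speech and vocal learning, spans 541 kb of the same chromosome and had none either. Of 213 other genes of 500 kb or more, 30 (14.1%) had no peak in either list, and the median was 2 H1foo and 2 AE4 peaks. Those genes were not matched for gene density. Foxp1 lay in an interval of 5289 kb without an H1foo peak (95041694 to 100330983), the 2nd longest of 97598 such intervals between peaks on the autosomes. It holds 17 protein-coding genes, among them Mitf and Rybp. AE4 peaks were absent from 1941 kb of it around Foxp1. Foxp2 lay in 3057 kb without an H1foo peak, with 9 protein-coding genes including Met and Cav1, and its nearest AE4 peak was 14771 bp from the gene.

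The 4 FoxN genes each had H1foo peaks, as did 56.5 to 84.7% of other genes in their classes. Foxn3, a checkpoint suppressor that spans chr12:99190081-99563667 (374 kb), had 43 H1foo and 21 AE4 peaks, the most of any forkhead gene for H1foo and equal to Foxk1 for AE4. Its H1foo density of 1.14 per 10 kb compares with a class median of 0.0283, and 62 of 1455 other genes were as dense. The highest AE4 score of the family lay here, 270.73 at chr12:99504734-99505528, reached by 0.606% of AE4 peaks. The overlapping H1foo peak had a score of 79.08. Foxn1, the thymic epithelium factor whose loss gives the nude mouse, had 13 H1foo and 9 AE4 peaks over 29.2 kb of chromosome 11. In Foxn1 8 of 9 AE4 peaks overlapped an H1foo peak. Foxn4, a retinal progenitor factor, had 3 H1foo and 1 AE4 peaks that did not overlap, and Foxn2 had 1 H1foo peak.

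**Figure D2:**
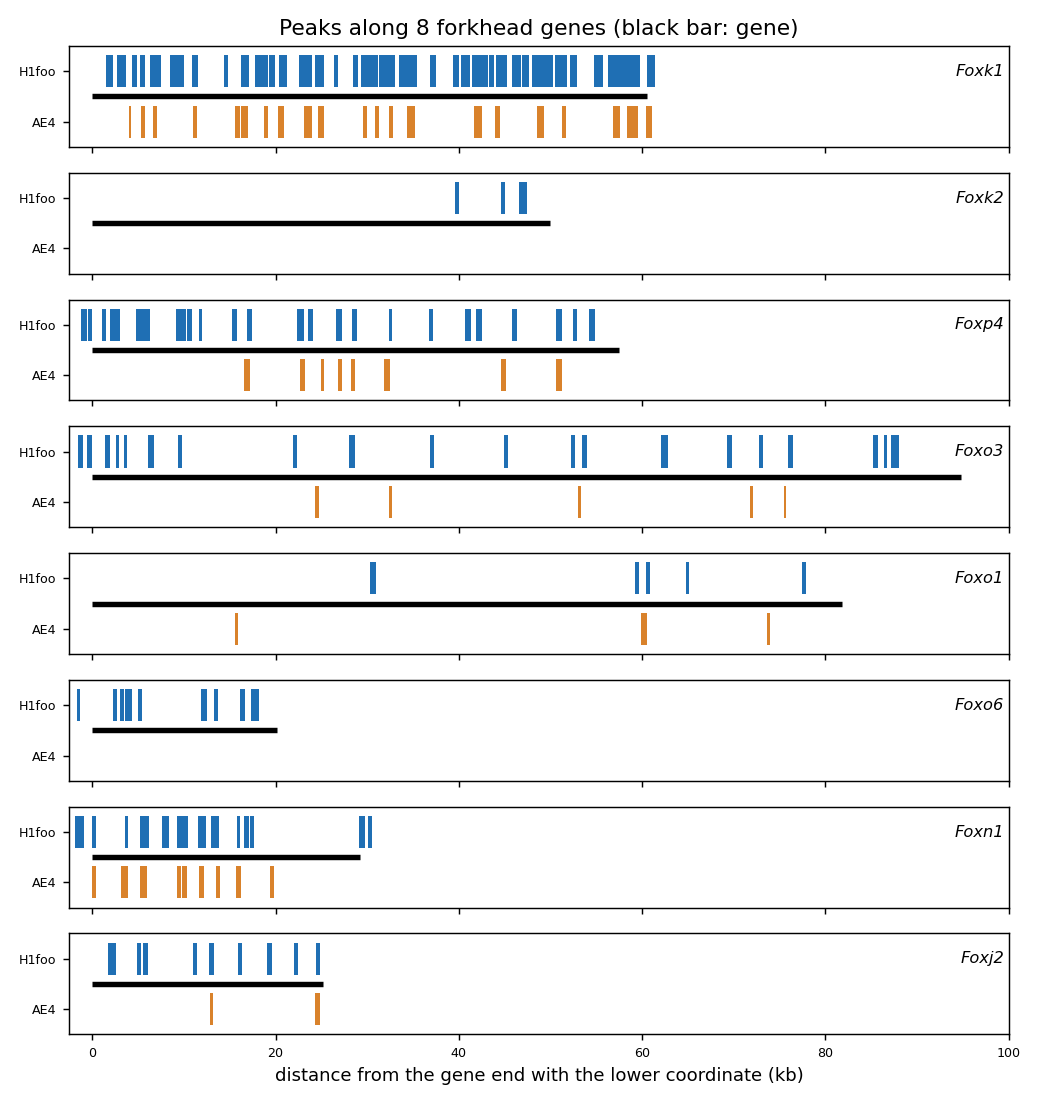
Peaks of H1foo (blue, above the gene) and AE4 (orange, below) along 8 forkhead genes, drawn to 1 scale in kb from the gene end with the lower coordinate. Foxk1 is filled along its length by 37 H1foo and 21 AE4 peaks, Foxk2 has 3 H1foo peaks towards its far end, and Foxo6 has 9 H1foo peaks and no AE4 peak.

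The 3 FoxJ genes each had peaks in both lists, where 53.3 to 84.4% of other genes in their classes had an H1foo peak and 35.6 to 74% an AE4 peak. Foxj1, the regulator of motile cilia on chromosome 11, is 4.8 kb long and had 5 H1foo peaks and 1 AE4 peak, with the highest H1foo score of 247.83. H1foo peaks covered 56.2% of Foxj1 and its windows, and 129 of 1220 other genes of its class (10.6%) were as dense. Of the 5, 2 were also in the window of the neighbouring Rnf157. Foxj2, a broadly expressed activator, had 9 H1foo and 2 AE4 peaks over 25.2 kb, and both AE4 peaks overlapped H1foo peaks. Foxj3 had 1 peak of each list over 89.5 kb, below the class medians of 0.745 and 0.308 per 10 kb.

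Foxm1, an activator of mitotic genes, had 4 H1foo and 4 AE4 peaks over 12.9 kb of chromosome 6, and a single peak of each list overlapped the other. The highest AE4 score at Foxm1 was 108.54, of a peak also in the window of Tex52, and the highest H1foo score 100.44. Foxr1, on chromosome 9, had 3 H1foo peaks (highest score 148.9) and 1 AE4 peak. Foxh1, the Smad partner that carries Nodal signals, is 3.79 kb long on chromosome 15 and had 4 H1foo peaks, the highest with a score of 214.11, and no AE4 peak. All 4 were also within the window of Kifc2, and 43.5% of Foxh1 and its windows was covered. Around Foxh1, 274 H1foo and 123 AE4 peaks lay in 1 Mb, and its nearest AE4 peak was 4590 bp away.

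The FoxA pioneer factor genes differed in their peaks and in their surroundings, and a link between the 2 was not tested. Foxa3, on chromosome 7 with 190 H1foo peaks in the surrounding 1 Mb, had 3 H1foo peaks (highest score 174.92) and 1 AE4 peak. In its class 92.1% of other genes had an H1foo peak and 79.6% an AE4 peak, and its density of 2.10 H1foo peaks per 10 kb was below the class median of 3.25. Foxa1, on chromosome 12, and Foxa2, on chromosome 2, had none. In the class that these 2 genes share, 14.4% of other genes had an H1foo peak and 4.79% an AE4 peak. The 1 Mb around Foxa1 and Foxa2 held 2 and 8 H1foo peaks, and the nearest H1foo peaks were 47230 and 12307 bp away.

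Of the forkhead genes of up to 6 kb, 34.8% had an H1foo peak. This was near the 38.8% of other genes of that length, which were not matched for gene density. Among the forkhead genes of any length without a peak in either list were Foxb1, Foxb2, Foxc1, Foxd2, Foxd3, Foxd4, Foxe1, Foxe3, Foxf2, Foxi1, Foxi3, Foxl2 and Foxq1, beside Foxa1, Foxa2, Foxp1 and Foxp2. Among them are regulators of the thyroid (Foxe1), the lens (Foxe3), the inner ear (Foxi1) and the ovary (Foxl2). Foxs1, the shortest at 1.31 kb on chromosome 2, had 2 H1foo peaks with scores of 105.8 and 115.07 and 1 AE4 peak of 51.41. Foxd1, of the kidney stroma, and Foxi2 had a single H1foo peak each and no AE4 peak. The H1foo peak of Foxd1 began 1334 bp outside the gene with a score of 100.16, and that of Foxi2 lay 439 bp outside with 57.72.

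The window of 2 kb decided some of these calls. Just inside it were the single H1foo peaks of Foxf1 (1395 bp from the gene), Foxd1 (1334 bp) and Foxc2 (1078 bp) and the AE4 peak of Foxs1 (1351 bp). Just outside were the nearest H1foo peaks of Foxd3 (2756 bp), Foxl2 (2822 bp), Foxd2 (3706 bp) and Foxe1 (4160 bp). For AE4 they were those of Foxi2 (3000 bp), Foxl1 (3620 bp) and Foxh1 (4590 bp).

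**Figure D3:**
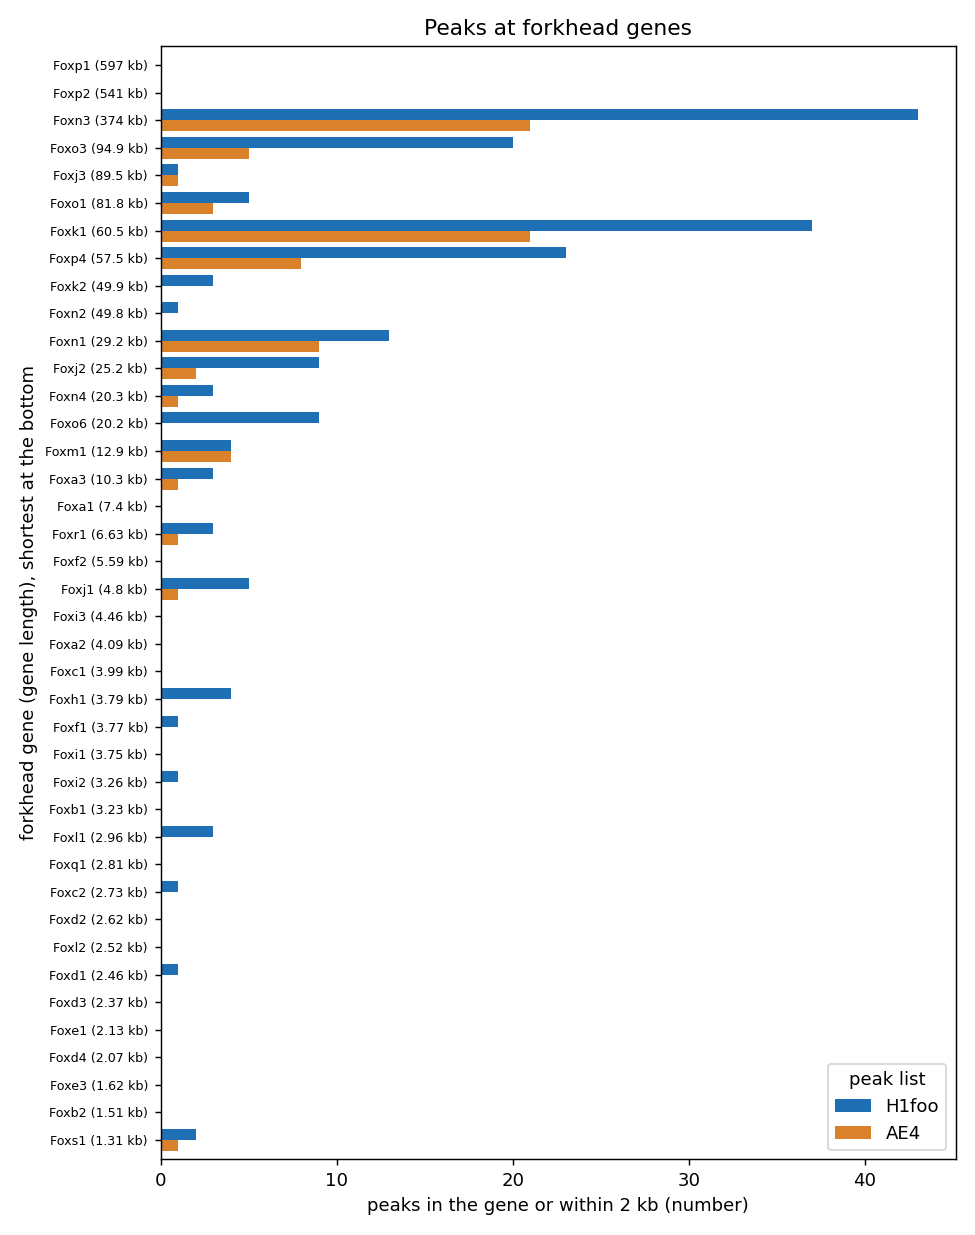
Number of H1foo (blue) and AE4 (orange) peaks in 40 of the forkhead genes or within 2 kb, ordered by gene length with the longest at the top. Foxn3 and Foxk1 have the most peaks (43 and 37 for H1foo, 21 each for AE4), and the 2 longest genes Foxp1 and Foxp2 have none. Of the forkhead genes of up to 6 kb, 34.8% have an H1foo peak, against 38.8% of other genes of that length, not matched for gene density.

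A pair of paralogous clusters lay in surroundings that differed. On chromosome 13, Foxq1, Foxf2 and Foxc1 stand within 252 kb, which held 3 H1foo and 2 AE4 peaks. These peaks lay between Foxf2 and Foxc1, none was in the window of a forkhead gene, and no further peak of either list was within 100 kb of the cluster. Per 10 kb the 252 kb held 0.119 H1foo and 0.0792 AE4 peaks, against 0.18 and 0.0945 over chromosome 13. On chromosome 8, Foxf1, Foxc2 and Foxl1, genes of gut and vessel mesenchyme, stand within 46.3 kb, which held 16 H1foo and 6 AE4 peaks. That is 3.46 H1foo and 1.3 AE4 peaks per 10 kb, against 0.812 and 0.56 over chromosome 8. The surrounding 1 Mb was dense as well, with 368, 366 and 367 H1foo peaks around Foxf1, Foxc2 and Foxl1. The span of the cluster was no denser than this surrounding 1 Mb for either antibody. Foxf1 and Foxc2 had 1 H1foo peak each, with scores of 106.62 and 61.78, and Foxl1 had 3, the highest 125.06. The peak of Foxf1 was also in the window of the neighbouring Mthfsd. No AE4 peak lay at the 3 genes, and 219, 219 and 223 AE4 peaks lay in their surrounding 1 Mb. In the class that the 3 genes share, 34.2% of other genes had an H1foo peak and 18.6% an AE4 peak. The highest H1foo score of the cluster, 322.74, lay between Foxf1 and Foxc2, outside the windows of both. The nearest AE4 peaks to Foxf1, Foxc2 and Foxl1 were 7967, 9256 and 3620 bp away.

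**Figure D4:**
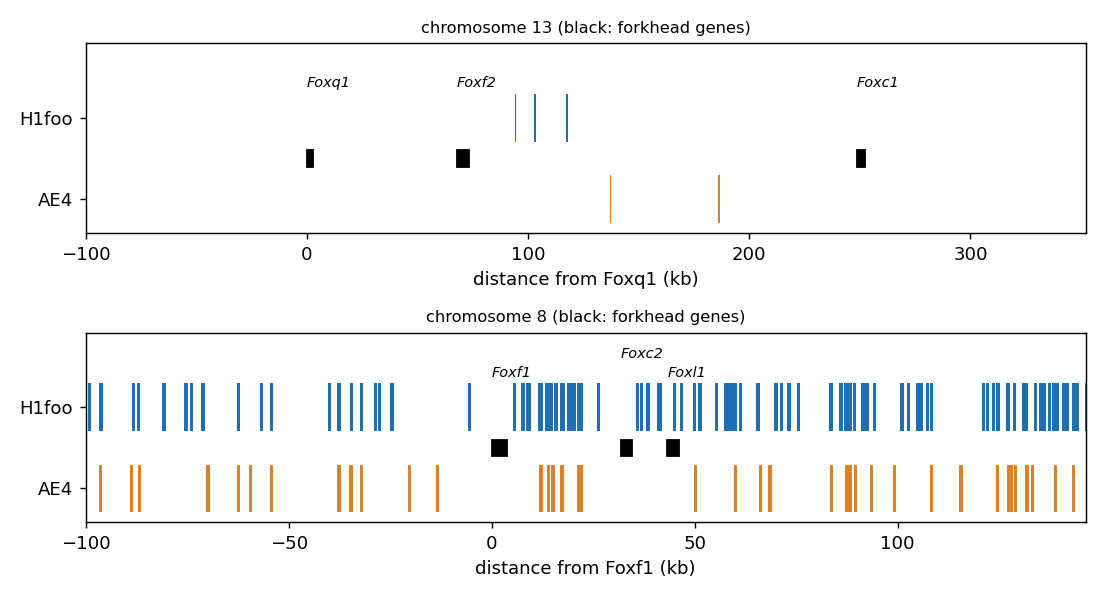
H1foo (blue) and AE4 (orange) peaks in the paralogous forkhead clusters of chromosomes 13 and 8 and 100 kb on each side, in kb from the first gene of each cluster. Forkhead genes are black. The chromosome 13 panel shows 3 H1foo and 2 AE4 peaks in all, whereas the chromosome 8 panel shows 80 H1foo and 39 AE4 peaks. No AE4 peak lies within 2 kb of Foxf1, Foxc2 or Foxl1, in whose class 18.6% of other genes had one.

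The density of peak centres was then followed outward from the 23 forkhead genes of up to 6 kb. Inside the genes it was 83.5 H1foo peaks per Mb (6 peaks), against 198 inside 5180 other genes of that length. In the first 2 kb outside it was 130 per Mb (12 peaks) against 102, and at 50 to 100 kb it was 85.7 against 90.3. Without the 3 genes on chromosome 8 the forkhead values were 80.2, 100 and 52 per Mb. For AE4 there was 1 peak inside the genes (13.9 per Mb against 74.4) and 1 in the first 2 kb (10.9 per Mb against 40.2). At 10 to 20 kb the AE4 density was 56.5 per Mb against 48.3, and 30 without chromosome 8. The other genes had their highest density of each antibody inside the gene, and the forkhead genes did not. The forkhead values inside the genes rest on 6 H1foo peaks and 1 AE4 peak. The other genes were not matched for gene density, so the difference in profile is a description only.

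**Figure D5:**
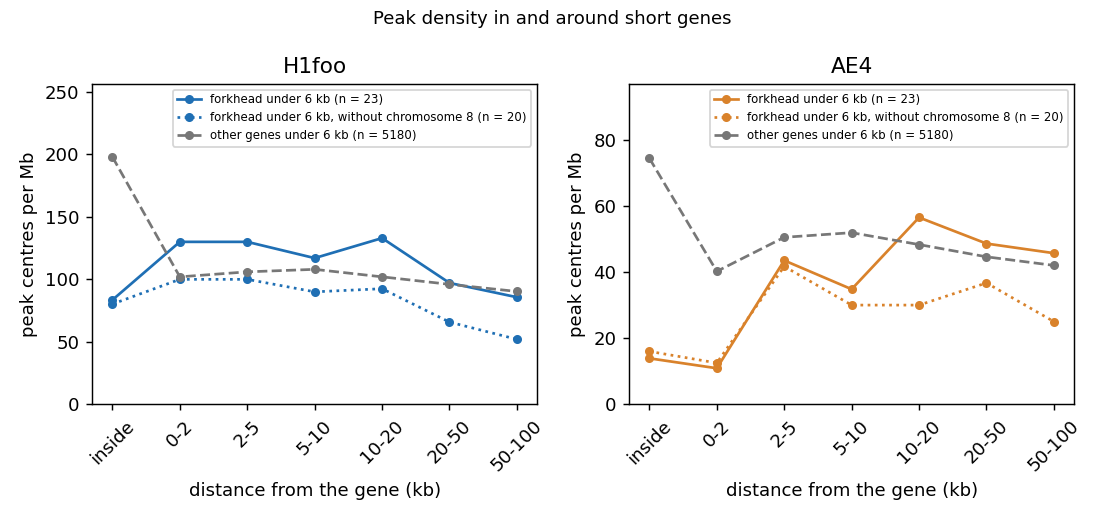
Peak centres per Mb inside genes of up to 6 kb and at rising distance from them (kb), for H1foo (left) and AE4 (right). Solid lines show 23 forkhead genes, dotted lines the 20 outside chromosome 8, and grey dashed lines 5180 other genes. Inside the genes the forkhead values are 83.5 against 198 for H1foo and 13.9 against 74.4 for AE4, each resting on few peaks.

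The peaks around forkhead genes with and without a peak were counted as a description. The 23 genes with an H1foo peak had 16 to 384 H1foo peaks in the surrounding 1 Mb (median 134), their own included, and the 18 without had 0 to 78 (median 5.5). The 2 ranges overlapped between 16 and 78. For AE4 the 14 genes with a peak had 12 to 193 (median 74.5) and the 27 without 0 to 223 (median 8). Those 27 include the chromosome 8 cluster. Since a gene's own peaks were counted, the groups differ in part by construction: at Foxn3, 43 of the 66 H1foo peaks were its own. The same split was not made for other genes. When other genes were classed by length and by the peaks in the surrounding 1 Mb outside their own window, 55.2% had an H1foo peak and 41.3% an AE4 peak, beside 56.1% and 34.1% of forkhead genes.

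Start sites could be placed for 26 of the 41 genes, from a RefSeq table of promoters on GRCm38.p6 whose coordinates are those of mm10. An H1foo peak lay within 2 kb of the start at 6 of 26 (23.1%), namely Foxa3, Foxi2, Foxj2, Foxn1, Foxn3 and Foxr1, beside 33.6% of 16456 genes with a listed start. No AE4 peak lay within 2 kb of any of the 26 starts, beside 11.5% of genes with a listed start. Among forkhead genes without a placed start, Foxj1, Foxk1, Foxm1 and Foxs1 had AE4 peaks within 2 kb of a gene boundary. Those genes and Foxc2, Foxf1, Foxh1, Foxl1 and Foxo6 had H1foo peaks there. Whether these boundaries are starts is unknown, so the counts at starts do not cover the whole family. Over the promoter window of 300 bases (250 before the start and 50 after), H1foo peaks lay at 2 of 26, Foxn1 and Foxr1 (7.69%, background 13.5%), and AE4 peaks at 0 (background 2.25%). Where several starts were listed, the outermost was taken, and in Foxa1, Foxn1, Foxn3, Foxn4 and Foxp1 the gene extends beyond the listed start.

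The promoters of Foxr1 and Foxn1, where an H1foo peak covers the sequence, are shown beside those of Foxd3 and Foxk2, where none does. Each is the 250 bases before the start, 5′ to 3′ on the strand of the gene, with CpG dinucleotides in capitals. Foxr1 is chr9:44440869-44441118 on the minus strand, with 15 CpG and 250 bases inside the peak. Foxn1 is chr11:78386609-78386858 on the minus strand, with 7 CpG and 204 bases inside the peak. Foxd3, which maintains pluripotent cells and the neural crest, is chr4:99656049-99656298 on the plus strand with 21 CpG. Foxk2 is chr11:121259737-121259986 on the plus strand with 48 CpG.
Foxr1: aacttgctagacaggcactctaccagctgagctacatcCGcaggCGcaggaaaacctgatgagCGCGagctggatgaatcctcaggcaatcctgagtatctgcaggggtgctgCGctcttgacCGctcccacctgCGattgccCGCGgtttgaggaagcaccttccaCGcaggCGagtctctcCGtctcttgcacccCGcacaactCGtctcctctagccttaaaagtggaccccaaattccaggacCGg
Foxn1: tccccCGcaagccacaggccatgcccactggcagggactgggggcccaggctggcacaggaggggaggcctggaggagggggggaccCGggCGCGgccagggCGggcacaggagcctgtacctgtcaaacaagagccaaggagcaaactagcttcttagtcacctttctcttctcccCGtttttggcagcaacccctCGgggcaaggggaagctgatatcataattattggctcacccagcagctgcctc
Foxd3: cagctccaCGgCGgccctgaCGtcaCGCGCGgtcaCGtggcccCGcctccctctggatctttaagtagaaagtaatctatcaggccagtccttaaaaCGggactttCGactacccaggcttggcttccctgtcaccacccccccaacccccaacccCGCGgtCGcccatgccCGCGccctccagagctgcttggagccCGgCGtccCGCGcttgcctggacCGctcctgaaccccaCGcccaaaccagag
Foxk2: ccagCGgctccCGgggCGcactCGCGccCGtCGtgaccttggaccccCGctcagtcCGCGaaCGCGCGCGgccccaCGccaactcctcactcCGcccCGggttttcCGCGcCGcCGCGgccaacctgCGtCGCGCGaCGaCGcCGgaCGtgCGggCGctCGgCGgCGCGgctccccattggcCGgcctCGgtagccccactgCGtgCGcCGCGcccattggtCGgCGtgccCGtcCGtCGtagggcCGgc

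Forkhead promoters were rich in G and C. Over the windows of 300 bases the 26 genes had a median GC content of 64.2% (range 49 to 79.3%) and a median of 23.5 CpG, against 56.7% and 14 CpG over 16456 genes. The 6 forkhead promoters with an H1foo peak within 2 kb had a median of 12 CpG (5 to 37), and the 20 without had 26 (6 to 59). The ranges of the 2 groups overlapped. Over all genes the order was the other way, with 16 CpG where an H1foo peak was near and 12 where none was. The forkhead consensus GTAAACA, read on both strands, was found in 1 of 26 forkhead promoters (3.85%), that of Foxa1, and in 2.95% of all promoters of that length. It began 141 bases before the Foxa1 start and is shown in capitals in chr12:57546229-57546268, minus strand. Foxa1 had no peak in either list.
Foxa1: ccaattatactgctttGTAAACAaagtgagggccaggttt

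Peaks of the 2 lists were compared across the family. Of 195 H1foo peaks at forkhead genes, 52 (26.7%) overlapped an AE4 peak, against 24.1% of all autosomal H1foo peaks. Of 79 AE4 peaks, 53 (67.1%) overlapped an H1foo peak, against 51.4%. Foxk1 had 20 of the 52 and 19 of the 53, and without it the shares were 20.3% and 58.6%. The median score of the peaks at forkhead genes was 79.1 for H1foo and 63.7 for AE4, and their median widths were 584 and 475 bp, against 560 and 466 bp in the whole lists. Of these peaks, 10 for H1foo and 3 for AE4 were also in the window of another protein-coding gene.

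Of the 5 forkhead genes with known roles in pluripotent cells, Foxh1, Foxm1 and Foxo1 had 4, 4 and 5 H1foo peaks, and Foxd3 and Foxp1 had none. AE4 peaks lay at Foxm1 (4) and Foxo1 (3). These are 3 of 5 genes for H1foo and 2 of 5 for AE4, too few to set against the 62.3% and 48.4% of all genes. The nearest peaks to Foxd3 were 2756 bp away for H1foo and 51627 bp away for AE4.

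Genes of the pathways in which forkhead factors act were counted in the same way, against the backgrounds of 62.3% for H1foo and 48.4% for AE4. Of 18 regulators of FoxO proteins, 15 had an H1foo peak (83.3%, same classes 73.6%) and 13 an AE4 peak (72.2%, same classes 63.6%), with 17 and 13 H1foo peaks at the kinase genes Akt2 and Akt1. Of 15 FoxO targets, 12 had an H1foo peak (80.0%, same classes 58.3%) and 5 an AE4 peak (33.3%, same classes 42.7%). The apoptosis gene Bcl2l11 and the muscle ubiquitin ligase gene Trim63 had 8 H1foo peaks each, with 0 and 2 AE4 peaks. Of 9 Foxm1 targets, 8 had an H1foo peak and 4 an AE4 peak, led by the phosphatase gene Cdc25b with 7 H1foo peaks, followed by Aurkb, Plk1 and Skp2 with 4. Of 10 genes of Foxh1 and Nodal signalling, 8 had an H1foo peak and 6 an AE4 peak, and the activin receptor genes Acvr1b and Acvr2b had 17 and 11 H1foo peaks. Of 10 FoxA partners and targets, 4 had a peak of each antibody (40%, same classes 61.5% for H1foo and 47.9% for AE4). Hnf4a had 9 H1foo and 4 AE4 peaks, and Gata6, Sox17, Afp, Alb, Apoa1 and Cebpa had none.

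Forkhead genes were set beside 2 other families of transcription factors, without a test. H1foo peaks lay at 13 of 39 Hox genes (33.3%, same classes 48.6%) and 30 of 44 nuclear receptor genes (68.2%, same classes 64.9%), where the forkhead values were 56.1% and 47.1%. AE4 peaks lay at 2 Hox genes (5.13%, same classes 32.7%) and 26 nuclear receptor genes (59.1%, same classes 52.9%), where the forkhead values were 34.1% and 34.0%. At least 4 H1foo peaks were found at 0 of 39 Hox genes, 20 of 44 nuclear receptor genes and 11 of 41 forkhead genes, beside 31.6% of all genes. In the same classes the shares of other genes were 18.4%, 32.9% and 20.3%.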

How the data were processed

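The submitters' processing notes name Bowtie 1.1.2 and mm10. Per the file headers, MACS had made the peak lists. The authors deposited 1 list per antibody with a score per peak, whose scale is not named, and how the 2 libraries were combined and which control was used are not stated in the labels or headers. Scores served for description and for 1 filter within each list.

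Starts were converted to positions counted from 1. Gene positions came from a RefSeq table of GRCm38.p6, the assembly of mm10, and covered 20661 protein-coding genes on 19 autosomes. The table gives gene spans without exons. Gene classes were 3 of length by 10 of gene density (window of 1 Mb). Each class was weighted by its forkhead genes. No test was made, since the lists hold no value per library. Overlap counting was tested on simulated data. Python 3.11.15, numpy 2.4.6 and pandas 2.3.3 were used.

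Members and gene lists were chosen with earlier results of these data known. Genes named with values were those with at least 4 H1foo peaks or any AE4 peak, those with the 10 highest H1foo or 5 highest AE4 scores, those with AE4 peaks alone (none was found), by name alone those without a peak, the stem cell genes, the 2 clusters and, per pathway list, the 2 genes with most H1foo peaks. Tied genes, other members and neighbouring genes named in passing were added after their values were seen. The values of 1 member, which stays in all counts, are not reported here. Alternatives were other windows, overlaps, scores and gene classes. Classes by the peaks in the surrounding 1 Mb were chosen after seeing the data.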

Additional observations from a re-analysis of the deposited data

How the results depend on the processing

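With windows of 0, 1 and 5 kb, other overlap rules, a score of 100 or more, gene boundaries alone or chromosome 8 left out, the share of forkhead genes with an H1foo peak ran from 46.3 to 65.9% and was above the share of other genes in the same classes in each of these settings. It was below that share with length classes alone (58.4%) and with no classes (62.3%). With classes by surrounding peaks, chosen after seeing the data, the shares of other genes were 55.2% for H1foo and 41.3% for AE4. The AE4 share ran from 12.2% (score of 100 or more) and 17.1% (gene boundaries) to 41.5% (5 kb). With a score of 100 or more, 5 forkhead genes had peaks of both antibodies in place of 14. Within 5 kb of a start site, 11 of 26 genes had an H1foo peak in place of 6, and 1 had an AE4 peak in place of 0. Of the recomputed values, 27 stayed within the 95% binomial interval (Wilson) of the share given above or within 1.5 times the count, and 6 did not. The 27 include the 58.4% of length classes alone, with which the H1foo comparison turned round. For shares of other genes the interval was also computed with a number of 41, which makes it wide. Forkhead genes are few and not a sample, so that interval served only as a yardstick. No paired analysis was possible because the lists hold no value per library, and for the same reason no library could be left out. Read depth is unknown, which limits any reading of a missing peak.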

Other observations

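The 3 forkhead genes of chromosome X, left out of the counts above, had no peak in either list. Few peaks can lie on that chromosome. The autosomes held 97598 intervals between H1foo peaks and 47187 between AE4 peaks, of lists with 97825 and 47493 peaks. The share of all genes of chromosome X with a peak was not counted, so the lack of peaks is not a result about these 3 forkhead genes. The 3 genes are Foxp3, the regulator of regulatory T cells, Foxo4 and Foxr2. Foxc1 lay in 1372 kb without an H1foo peak, with 9 protein-coding genes. Foxb2 lay in 955.9 kb with 4 genes and Foxb1 in 524.4 kb in which it is the sole protein-coding gene.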
